A study of Mus musculus with 12 samples.

Results

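The SLAM family is a set of cell-surface receptors of immune cells, and SAP is the adaptor protein through which most of them signal. A set of 9 mouse genes of this pathway is described: the receptor genes Slamf1, Slamf6, Slamf7, Ly9, Cd48 and Cd84, the adaptor genes Sh2d1a, which encodes SAP, and Sh2d2a, and the kinase gene Fyn. They were taken by symbol from a deposited table of 14004 genes, and all 9 were present in it. RNA-seq measured them in iNKT1 cells, the T-bet-dependent subset of the invariant natural killer T (iNKT) cells, which recognise lipids on CD1d. Tetramer-binding, YFP-carrying cells were sorted in 4 groups of 3 libraries: cKO thymus, control thymus, cKO liver and control liver. Mice of the cKO groups carried Tbx21Cre, a Rosa26-YFP+ reporter and the floxed Ets1F/F alleles. Control mice carried the same Cre and reporter without floxed Ets1. Tbx21 encodes T-bet, so the floxed alleles are cut only in cells that have switched Tbx21 on, and the reporter marks those cells in both genotypes. The sources used here do not give the age or sex of the mice. The series' design text calls the replicates independent without saying that each is a separate mouse, so a p-value here measures the spread between these libraries, part of which may be technical.

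SLAM receptors mostly bind a copy of themselves on a neighbouring cell, and the switch motifs in their tails recruit SAP, which in turn brings in the Src-family kinase Fyn. The iNKT cell lineage depends on this route: its precursors are selected in the thymus by other CD1d-bearing thymocytes, contacts between SLAM receptors of these cells supply a signal beside that of the T cell receptor, and mice without SAP lack iNKT cells. In mature lymphocytes the same receptors tune adhesion, cytokine release and killing, and they can inhibit when SAP or its relative EAT-2 is missing.

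The deposited values are read numbers per gene that the authors adjusted for library size (called values below). Their totals still ranged from 21.36 M in cKO liver library 2 to 32.04 M in control thymus library 2. Group levels are means ± SD over 3 libraries. Differences are limma estimates ± SE on log2(value + 1), cKO minus control or liver minus thymus, and a gene is called when its p, adjusted by the Benjamini-Hochberg method over the 13058 genes tested, is below 0.05. All 9 genes passed the filter for testing, which asked for values of 10 or more in 3 or more libraries.

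Ets1 itself had values of 11817, 7069 and 5788 in cKO thymus libraries, against 23692, 28051 and 19493 in control thymus libraries. In liver it had 3594, 4425 and 5787 in cKO libraries, against 18773, 18528 and 15910.2 in control libraries. Ets1 fell in both tissues (limma log2 difference -1.58, adjusted p = 0.0095 in thymus, and -1.97, adjusted p = 0.0012 in liver), so the libraries carried the genotype of their labels. Reads over the whole gene were counted, and those outside the deleted part can remain.

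Recovered depth was 18.5 to 43.4 M reads in 10 libraries, 3.21 M in cKO liver library 2 and 3.87 M in control liver library 3. Control thymus libraries 1 and 2 stood apart by 3528 and 2824 genes without a read, against 966 to 2223 in the other 10. The median difference of all tested genes was 0.236 in the thymus contrast and 0.0247 in the liver contrast, on the log2 scale, and -0.031 and 0.0139 after rescaling by TMM. Markers of iNKT and type 1 cells (15 of 15 in the table) made up 0.77% to 0.944% of the values in cKO thymus, 0.569% to 0.794% in control thymus, 0.814% to 1.01% in cKO liver and 0.78% to 0.963% in control liver. Immature thymocyte markers (8 of 10) lay at 0.0891% to 0.127% in cKO thymus and 0.0994% to 0.106% in control thymus, and at 0.0703% to 0.0934% in cKO liver and 0.0955% to 0.11% in control liver. B cell markers (6 of 8) reached at most 0.00276%, macrophage and Kupffer cell markers (7 of 10) 0.00433%, NK cell markers (5 of 5) 0.0262% and hepatocyte markers (5 of 7) 0.00767%. In thymus, Ncr1, Adgre1, C1qb, C1qc, Cd5l and Ttr had 0 reads in every library. Other members of these lists were detected there, with Cd68 values up to 328 in cKO thymus and 279 in control thymus. Alb reached 424 and 268, and Csf1r 114 and 12.6, in the same order. The summed NK share overlapped between the genotypes, but within that list Fcer1g fell over both tissues (limma log2 difference -3.02, adjusted p = 0.0085), while Itga2 had means of 2237 in cKO thymus and 369.9 in control thymus without overlap (4.84, limma adjusted p = 0.071). The immature thymocyte, dendritic, endothelial and neutrophil lists had sums that did not overlap between the genotypes in liver, and the dendritic and endothelial sums did not in thymus. Dendritic cell markers (5 of 7) were at 0.00916% to 0.0277% in cKO thymus and 3.79e-07% to 0.00273% in control thymus, and at 0.00728% to 0.0119% in cKO liver and 0.00291% to 0.00524% in control liver. Of these Itgax, with the highest mean in both cKO groups, averaged 3573 in cKO thymus and 149.9 in control thymus, and 1329.9 in cKO liver and 102 in control liver, and rose over both tissues (limma adjusted p = 0.007). In liver, by contrast, H2-Ab1 averaged 8.35 in cKO cells and 46.8 in control cells (-3.63, limma adjusted p = 0.6) and Cd74 238 in cKO cells and 353 in control cells (-2.27, limma adjusted p = 1). H2-Aa (201 and 57.4, in the same order) and Xcr1 (519.7 and 385) had higher means in cKO liver, and neither was called. In thymus Cd74 averaged 249 in cKO cells and 3.73 in control cells without overlap (4.61, limma adjusted p = 0.34). H2-Aa, H2-Ab1 and Xcr1 also had higher means in cKO thymus, and none was called. Endothelial markers (Pecam1 and Cd93 of a list of 6) were at 3.79e-06% to 0.000297% in cKO thymus and 0.00166% to 0.00315% in control thymus, and at 6.39e-06% to 0.000448% in cKO liver and 0.0107% to 0.0151% in control liver. Of the neutrophil list only Mmp9 was in the table, with a mean value of 0.717 ± 0.627 in cKO liver and 3349 ± 284 in control liver (n = 3 each). The part of these genes in the results that follow was not tested.

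Among the receptors, Slamf7 stood apart. It encodes CRACC, a receptor that binds itself and signals chiefly through EAT-2, and it had the highest mean value of the 9 genes in every group. Its value was 20444, 19597 and 19556 in cKO thymus libraries, against 16349, 11517 and 10812 in control thymus libraries. In liver it was 21969.8, 20421 and 22852 in cKO libraries, against 8167, 13247 and 10357 in control libraries. Every cKO library lay above every control library of its tissue, and the cKO libraries lay close together in both tissues.

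Slamf7 averaged 21748 ± 1231 in cKO liver and 10590.4 ± 2548 in control liver (SD, n = 3 each), and it rose 2.09-fold (limma log2 difference 1.06 ± 0.22, adjusted p = 0.033). It was the only one of the 9 genes called in liver, where 0.505% of all tested genes were called. In thymus it averaged 19866 ± 501 in cKO cells and 12893 ± 3014 in control cells (n = 3 each). The thymus difference of 0.65 ± 0.22 was not called (limma adjusted p = 0.21), and it came to 0.41 beyond the median of all tested genes. Over both tissues together Slamf7 rose by 0.86 ± 0.16 (1.81-fold, limma adjusted p = 0.0058), rank 70 by p among the 13058 genes and again the only call among the 9, with 2.27% of all tested genes called. The liver effect minus the thymus effect was 0.42 ± 0.31 (adjusted p = 0.94), so no difference between the tissues was detectable. In that comparison limma and edgeR called 0 of the 9 genes, and 0.00766% of all tested genes were called. In a bulk sample, a change in the number of cells that carry a transcript and a change in the amount per cell cannot be told apart.

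The call over both tissues held in each of 20 alternative settings, with limma or edgeR adjusted p between 0.0022 and 0.045. None of these settings allowed for thymus and liver libraries that may come from the same mouse. The liver call alone rested on less. It was lost after rescaling by TMM (adjusted p = 0.071) or median-of-ratios factors (0.056), in edgeR's test on recovered reads (0.082) and without both shallow liver libraries (0.34). It was also lost without cKO liver library 1 (0.15), 2 (0.12) or 3 (0.16), control liver library 1 (0.19) or 3 (0.12), or cKO thymus library 3 (0.054), while the difference stayed between 0.89 and 1.24. An antisense gene, Gm37787, shares 9.24% of the exonic bases of Slamf7 and was not analysed here, and the sources used here do not give the strand setting of the counting.

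**Figure D1:**
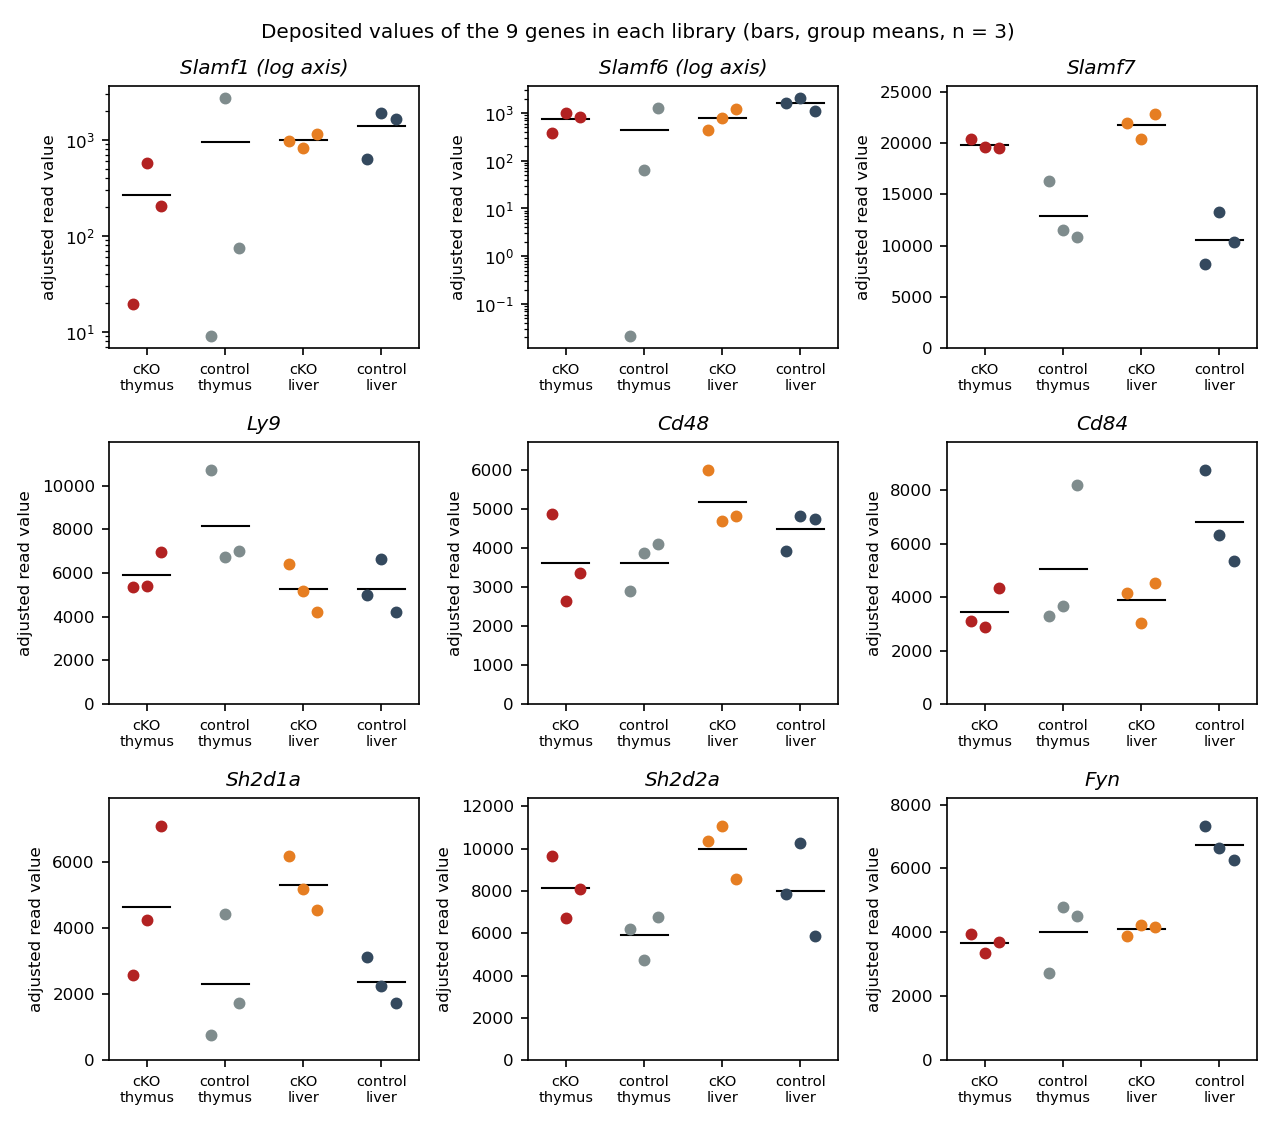
Deposited values of the 9 genes (vertical axes, adjusted reads, logarithmic for Slamf1 and Slamf6) in the libraries of cKO thymus, control thymus, cKO liver and control liver. Points are libraries and bars are group means of 3 libraries. Slamf7 lay at 19556 or more in all cKO libraries and at 16349 or less in all control libraries.

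Ets1 and its relatives bind DNA at a GGAA core. Because Ets1 is the deleted gene, the stretch of 250 bases before the start of transcription is printed for Slamf7, the gene that was called, and for Cd84 and Fyn, whose liver libraries did not overlap in the other direction. Sequences are those of RefSeq on GRCm38.p6, written 5′ to 3′ in the direction of transcription. Capitals mark each GGAA core and its reverse complement TTCC. Slamf7 lies at chr1:171649000-171649249 on the minus strand, Cd84 at chr1:171839447-171839696 on the plus strand and Fyn at chr10:39369549-39369798 on the plus strand.
Slamf7: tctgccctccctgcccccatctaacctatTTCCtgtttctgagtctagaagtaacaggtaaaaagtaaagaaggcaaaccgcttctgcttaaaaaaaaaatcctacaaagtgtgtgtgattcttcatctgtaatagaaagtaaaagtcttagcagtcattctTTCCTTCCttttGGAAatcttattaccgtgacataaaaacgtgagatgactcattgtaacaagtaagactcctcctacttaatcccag
Cd84: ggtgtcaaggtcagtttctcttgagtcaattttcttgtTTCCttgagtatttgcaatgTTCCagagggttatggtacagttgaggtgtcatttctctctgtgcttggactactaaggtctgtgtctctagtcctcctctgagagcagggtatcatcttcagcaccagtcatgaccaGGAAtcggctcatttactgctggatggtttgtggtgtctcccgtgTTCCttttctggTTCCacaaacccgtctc
Fyn: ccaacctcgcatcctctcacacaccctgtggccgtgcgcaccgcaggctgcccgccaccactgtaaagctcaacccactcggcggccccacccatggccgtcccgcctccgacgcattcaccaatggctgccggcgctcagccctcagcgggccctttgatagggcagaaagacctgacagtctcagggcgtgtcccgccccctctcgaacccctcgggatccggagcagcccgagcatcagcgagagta

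RefSeq promoters were at hand for 6 of the 9 genes (Slamf1, Slamf6, Slamf7, Cd48, Cd84 and Fyn). The GGAA core, searched on both strands, occurred 4 times in the Slamf7 window, and 33.4% of all 32851 promoters in the RefSeq table held at least as many. Cd84 and Slamf1 had 5 each, a number reached by 18% of promoters, and Cd48 had 2, reached by 76.8%. Slamf6 and Fyn had 0, whereas 93.4% of all promoters held at least 1. The longer ETS words CAGGAAGT (in 2.69% of all promoters) and CCGGAAGT (in 2.88%), each of which contains the core, were in none of the 6 windows. The T-box half-site GGTGTGA, the kind of word that T-bet binds, was found 1 time in the Cd48 window and in no other, against 3.33% of all promoters. A match is a run of letters and does not show binding, and the absence of one says nothing about sites elsewhere. The RefSeq starts of Slamf7, Fyn and, by a few bases, Slamf1 lie inside the gene bodies annotated by GENCODE. The GENCODE 5′ end is at position 171653035 of chromosome 1 for Slamf7 and 39368855 of chromosome 10 for Fyn, so other starts are annotated outside the windows searched.

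Cd84 went the other way in its values. It encodes a receptor that binds itself and steadies contacts between T cells and B cells. It had 3102, 2876 and 4348 in cKO thymus libraries, against 3308, 3684 and 8200.2 in control thymus libraries. In liver it had 4140.3, 3026 and 4531 in cKO libraries, against 8756, 6317 and 5360.4 in control libraries. The liver groups did not overlap, while the thymus groups did and control thymus library 3 stood far above the rest.

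Cd84 averaged 3899 ± 781 in cKO liver and 6811 ± 1751 in control liver (n = 3 each), a limma log2 difference of -0.79 ± 0.36 that was not called (adjusted p = 0.66). The difference was -0.45 ± 0.36 in thymus (limma adjusted p = 0.62) and -0.62 ± 0.26 over both tissues (limma adjusted p = 0.27). Over both tissues Cd84 was called in 1 of 20 alternatives, the one that left out control thymus libraries 1 and 2 (-1.04). That setting kept only control thymus library 3, the highest of its group. The lone library was assumed to vary like the other groups.

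Ly9 and Cd48 were well expressed and were not called in any comparison. Ly9 encodes CD229, a self-binding receptor whose loss in mice raises the number of iNKT cells. Its value was 5376, 5399 and 6966 in cKO thymus libraries, against 10708, 6708 and 7003 in control thymus libraries. The liver values were 6409, 5184 and 4228 in cKO libraries, against 4980.5, 6638 and 4228 in control libraries. The liver groups covered nearly the same range (limma log2 difference 0.00 ± 0.29, adjusted p = 1), and in thymus the difference of -0.44 ± 0.29 (limma adjusted p = 0.55) came with control thymus library 1 far above the others.

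Cd48 encodes a receptor without a signalling tail that serves as a ligand for the receptors CD244 and CD2. Its value was 4878, 2645 and 3374 in cKO thymus libraries, against 2907, 3875 and 4114 in control thymus libraries. Liver libraries gave 6008, 4697 and 4823 in cKO libraries, against 3924, 4817 and 4761 in control libraries. Both pairs of groups overlapped, with limma log2 differences of -0.03 ± 0.31 in thymus (adjusted p = 0.99) and 0.20 ± 0.31 in liver (adjusted p = 1). The sign in thymus and over both tissues (0.08 ± 0.22) changed with the scaling or the libraries used, so no direction can be given.

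Slamf1 and Slamf6, the receptors best known from iNKT cell selection, were the 2 low genes of the set and the most uneven. Slamf1 encodes SLAM itself, a self-binding receptor. Its value was 19.5, 577 and 206 in cKO thymus libraries, against 8.99, 2729 and 75.3 in control thymus libraries. In liver it was 979, 814 and 1155 in cKO libraries, against 628, 1883 and 1629 in control libraries. The thymus libraries of both genotypes spread over more than a factor of 10, from 8 recovered reads in control thymus library 1 to 2360 in control thymus library 2. The limma differences between the genotypes were 0.08 ± 1.48 in thymus (adjusted p = 1) and -0.36 ± 1.48 in liver (adjusted p = 1), and in thymus the sign turned to negative in edgeR (-1.82) and after either rescaling. Differences of several fold between the genotypes would not have been detectable in Slamf1 at this spread.

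Slamf6 encodes Ly108, a self-binding receptor that acts beside Slamf1 in the selection of iNKT cells. Its value was 386, 991 and 828 in cKO thymus libraries, against 0.0213, 64.8 and 1251 in control thymus libraries. The liver values were 441, 767 and 1192 in cKO libraries, against 1619, 2061 and 1115 in control libraries. Control thymus library 1 had 0 recovered reads and library 2 had 56, while library 3 had 998 and its value lay above those of all 3 cKO thymus libraries. The groups thus overlapped in both tissues.

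The limma difference of Slamf6 in thymus was 3.96 ± 1.56 (adjusted p = 0.28), a size that rests on the pseudocount because of the library without reads, and it was 2.82 with a pseudocount of 10 and 0.73 in edgeR's test. Leaving out control thymus library 3 made it a call (6.38, limma adjusted p = 0.01), whereas leaving out the other two control libraries turned it to -0.87. In liver the difference was -1.07 ± 1.56 (limma adjusted p = 1). The effect in liver minus that in thymus came to -5.03 ± 2.21 (limma adjusted p = 0.91), the only one of the 9 genes with an unadjusted p below 0.05 there, against 5.38% of all tested genes.

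Sh2d1a, the gene of SAP, had higher values in cKO cells of both tissues. Its value was 2562, 4231 and 7089 in cKO thymus libraries, against 770.2, 4418 and 1736 in control thymus libraries. Liver libraries gave 6192, 5169.6 and 4545 in cKO libraries, against 3116, 2246 and 1715 in control libraries. The liver groups did not overlap, and in thymus control library 2 lay above cKO libraries 1 and 2.

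Sh2d1a averaged 4628 ± 2289 in cKO thymus and 2308 ± 1890.2 in control thymus, and 5302 ± 831 in cKO liver and 2359 ± 707 in control liver (n = 3 each). The limma differences were 1.23 ± 0.51 in thymus (adjusted p = 0.3), 1.20 ± 0.51 in liver (adjusted p = 0.58) and 1.22 ± 0.36 over both tissues (adjusted p = 0.091), none of them called. Over both tissues it was called without control thymus library 2 (1.54, limma adjusted p = 0.0096). That library held the highest control value of Sh2d1a. This was the only call among 20 alternatives, in which the difference lay between 0.91 and 1.54. The gene shares 1465 of its 5505 exonic bases (26.6%) with Tenm1 on the opposite strand, whose own values lay between 0 and 876, and without a stated strand setting reads in that stretch cannot be assigned with certainty.

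Sh2d2a encodes TSAd, a T cell adaptor that binds the kinase Lck. Its value was 9649, 6726 and 8098 in cKO thymus libraries, against 6200.5, 4755 and 6751 in control thymus libraries. In liver it was 10382, 11073 and 8577 in cKO libraries, against 7860.0, 10255 and 5857 in control libraries. The groups overlapped in both tissues. The limma difference was 0.47 ± 0.27 in thymus (adjusted p = 0.47), 0.35 ± 0.27 in liver (adjusted p = 0.98) and 0.41 ± 0.19 over both tissues (adjusted p = 0.35).

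Fyn encodes the kinase that SAP recruits, and its level set 1 group, control liver, apart from the other 3. Its value was 3935, 3357 and 3703 in cKO thymus libraries, against 2719, 4792 and 4497 in control thymus libraries. The liver values were 3890.1, 4218 and 4161 in cKO libraries, against 7325, 6629.8 and 6262 in control libraries. The control liver libraries lay above all 9 others, and the cKO liver libraries lay within the combined range of the thymus libraries.

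Fyn averaged 4089.6 ± 175 in cKO liver and 6739 ± 539.7 in control liver (n = 3 each), a limma log2 difference of -0.72 ± 0.30 (adjusted p = 0.55). In thymus the difference was -0.09 ± 0.30 (limma adjusted p = 0.93). The liver effect minus the thymus effect was -0.63 ± 0.42 (limma adjusted p = 0.94), so a difference between the tissues was not shown. Control liver is also the group with the highest shares of Mmp9 and of the endothelial markers Pecam1 and Cd93, given above. In thymus, where the Fyn difference was -0.09, Cd93 averaged 524 in control and 1.06 in cKO cells. Pecam1 averaged 197 and 24.2 there, in the same order. Across the 12 libraries Mmp9 was among the 3 tested genes most correlated with Fyn (Pearson's r of log2(value + 1) 0.874). A link between these genes and Fyn was not tested.

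**Figure D2:**
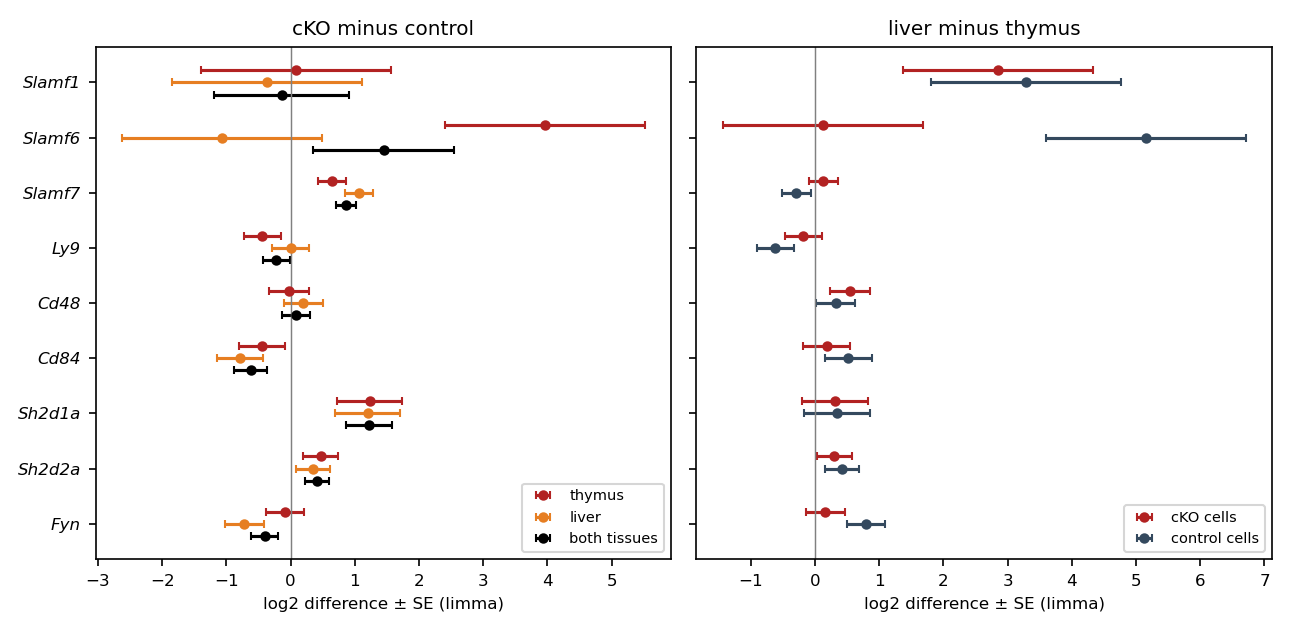
Limma log2 differences ± SE of the 9 genes, cKO minus control on the left (thymus, liver and both tissues together) and liver minus thymus on the right (cKO cells and control cells). Horizontal axes are log2 differences of value + 1. Slamf7 at 1.06 in liver and 0.86 over both tissues is the only gene called, and Slamf1 and Slamf6 carry the widest errors.

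Counted over the 9 genes, 3 had an unadjusted p below 0.05 with higher values and 0 with lower values in cKO thymus, against 8.13% and 5.10% of all tested genes. In liver 2 were higher and 2 lower at that threshold, against 3.43% and 3.49%, and over both tissues 3 were higher and 1 lower, against 8.02% and 5.67%. The adjusted threshold was passed by 0 of the 9 in thymus in limma and in edgeR, where 0.636% of all tested genes passed it in limma. Groups that did not overlap were found for 1 gene in thymus (Slamf7, higher), against 14.5% of all tested genes, and in liver for 2 that were higher (Slamf7 and Sh2d1a), against 9.99%, and 2 that were lower (Cd84 and Fyn), against 8.66%. The median difference of the 9 genes was 0.08 for thymus, 0.00 for liver and 0.08 for both tissues together, beside 0.24, 0.02 and 0.14 for all tested genes. The set as a whole thus lay near the middle of all genes, with members on both sides.

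Between liver and thymus, limma and edgeR called 0 of the 9 genes in either genotype, against 0.222% of all tested genes called in cKO cells and 0.605% in control cells. At an unadjusted p below 0.05 there were 0 in cKO cells, against 7.60% of all tested genes, and 4 in control cells (3 higher and 1 lower in liver), against 12.7%. These comparisons use the same libraries as those between genotypes. In cKO cells only Slamf1 had liver libraries that all lay above the thymus libraries, with a limma log2 difference of 2.85 ± 1.48 (adjusted p = 0.71), against 16.1% of tested genes without overlap. In control cells the Fyn libraries did not overlap, higher in liver (0.79 ± 0.30, limma adjusted p = 0.27), nor did those of Ly9, lower in liver (-0.62 ± 0.29, limma adjusted p = 0.39), against 15.4% of tested genes. Slamf6 differed by 5.15 ± 1.56 in control cells (limma adjusted p = 0.17) and by 0.12 ± 1.56 in cKO cells (limma adjusted p = 1). Dropping control thymus library 3 made the control difference a call (7.56, limma adjusted p = 0.0055), and dropping control thymus library 2 did so for Slamf1 in control cells (3.29 ± 1.48, limma adjusted p = 0.37), at 5.5 (limma adjusted p = 0.048). In both cases the dropped library held the highest control thymus value of the gene, and the call was the only 1 among 21 alternatives. Slamf7 differed little between tissues, by 0.13 ± 0.22 in cKO cells (limma adjusted p = 0.98) and -0.29 ± 0.22 in control cells (limma adjusted p = 0.62).

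Merged exons join those of all annotated transcripts of a gene, 10832 bases for Slamf6 and 1189 for Cd48. Which transcripts these cells use was not tested. The order of the genes and the receptor shares below depend on these lengths. Levels were compared between genes as values per kilobase of merged exons. On that scale Slamf7 and Cd48 led the 9 genes in every group, with 4340.3 ± 109.5 and 3055 ± 958 per kilobase in cKO thymus, 2817 ± 658 and 3055 ± 538 in control thymus, 4751 ± 269 and 4353 ± 608 in cKO liver, and 2314 ± 557 and 3785 ± 420.5 in control liver. Slamf7 had the higher mean of the pair in both cKO groups and Cd48 in both control groups, and their libraries overlapped in control thymus and in cKO liver. Ly9 followed with 1788 ± 276 in cKO thymus, 2461 ± 674 in control thymus, 1595 ± 331 in cKO liver and 1597 ± 373 in control liver, level with Sh2d2a in cKO liver (1686 ± 217). Sh2d2a (994 to 1686 per kilobase over the group means), Fyn (840.0 to 1545), Cd84 (549 to 1086) and Sh2d1a (419 to 963) formed a middle range whose order changed between groups. Slamf1 (43.4 to 224) and Slamf6 (40.5 to 148) were lowest in every group, and their libraries overlapped except in cKO liver, where Slamf1 was higher.

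The makeup of the receptor transcripts was taken as the share of each receptor gene of the Slamf cluster in their summed value per kilobase, with Cd244a (the receptor 2B4) as the seventh gene. Slamf7 made up 41%, 48.7% and 42.5% of the sum in cKO thymus libraries, against 36.5%, 28.3% and 25% in control thymus libraries. In liver it made up 37.8%, 41.7% and 43.9% in cKO libraries, against 21.5%, 27.6% and 25.7% in control libraries. Its share was thus larger in every cKO library than in any control library, and this measure needs no scaling between libraries.

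The shares of Ly9, Cd84, Cd48 and Slamf1 had lower means in cKO cells of both tissues. Those of Ly9 overlapped between the genotypes in liver but not in thymus. Those of Cd84 overlapped in thymus but not in liver. Ly9 held 18.1% ± 3.04 in cKO thymus and 26.1% ± 6.03 in control thymus, and 13.7% ± 2.17 in cKO liver and 17.3% ± 2.44 in control liver (n = 3 each). Cd84 held 5.55% ± 1.21 in cKO thymus and 8.61% ± 4.57 in control thymus, and 5.35% ± 0.93 in cKO liver and 12.1% ± 4.15 in control liver. The share of Cd48 overlapped between genotypes in thymus (30.4% ± 6.45 in cKO and 32.8% ± 6.75 in control) and in liver (37.5% ± 2.1 in cKO and 41.3% ± 3.65 in control). That of Slamf1 also overlapped in both tissues. Its means were 0.475% in cKO thymus and 1.71% in control thymus, and 1.38% in cKO liver and 2.39% in control liver. The summed value per kilobase itself was 9921 ± 1059 in cKO thymus and 9372 ± 459.6 in control thymus, and 11590.4 ± 1025 in cKO liver and 9185 ± 1147 in control liver. Shares of a sum depend on each other, and no test was made on them.

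**Figure D3:**
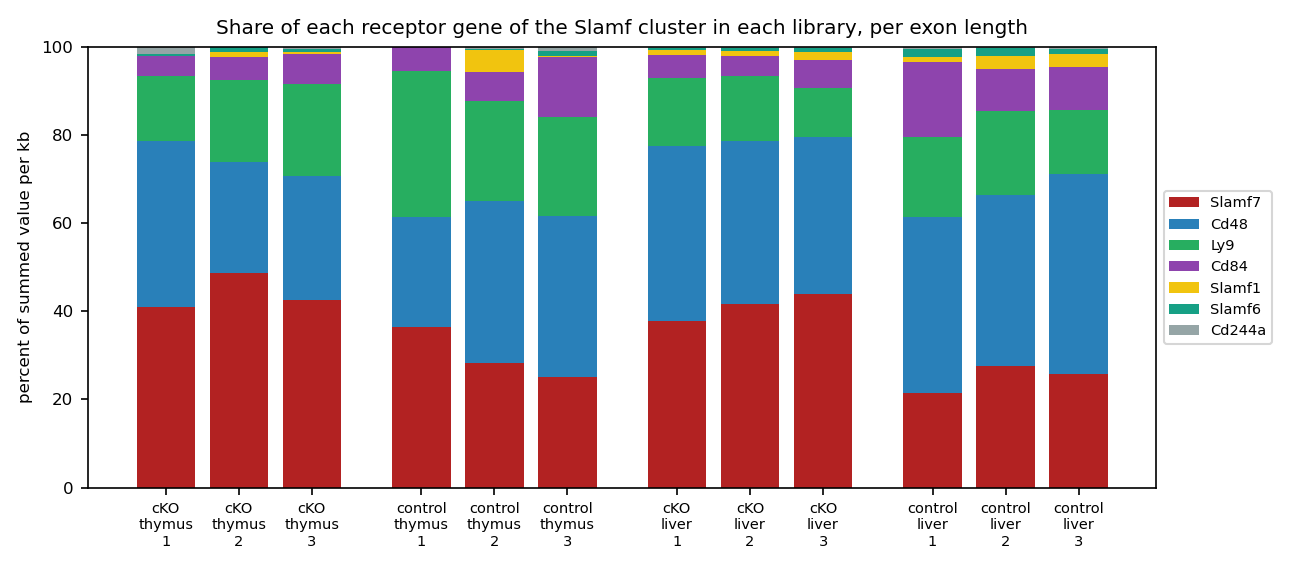
Share of each of the 7 receptor genes of the Slamf cluster in their summed value per kilobase of exon (vertical axis, percent) in each library of cKO thymus, control thymus, cKO liver and control liver. Each bar is 1 library. Slamf7 fills 37.8% to 48.7% of the cKO bars and 21.5% to 36.5% of the control bars.

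The 6 receptor genes lie in 1 cluster of 394 kb on chromosome 1 (GRCm38) that holds 8 protein-coding genes, all of them in the table. Slamf7 spans positions 171632403 to 171653035 on the minus strand, between Ly9 (171588624 to 171607410, minus strand) and Cd48 (171682009 to 171705258, plus strand). Slamf1 (171767127 to 171801184), Cd84 (171839697 to 171890718) and Slamf6 (171917515 to 171953170) follow on the plus strand. The nearest neighbours of Slamf7 had differences close to 0 in liver, 0.00 for Ly9 and 0.20 for Cd48, beside 1.06 for Slamf7. Of the other 2 cluster genes, Cd244a had values of 30.3 to 858, with limma differences of 0.92 ± 1.23 in thymus (adjusted p = 0.79) and 0.17 ± 1.23 in liver (adjusted p = 1). Gm10521, a predicted gene beside Cd84 and Slamf6, had 542, 148 and 287 in cKO liver libraries, against 1085, 837 and 557 in control liver libraries, groups that did not overlap (-1.48 ± 0.94, limma adjusted p = 0.9). The remaining genes lie elsewhere: Sh2d1a on chromosome X (42502453 to 42529330), Sh2d2a on chromosome 3 (87846755 to 87855722) and Fyn on chromosome 10 (39368855 to 39565381), all on the plus strand. Ly9 lies within the body of Cd244a on the opposite strand, and their exons share 0 bases.

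**Figure D4:**
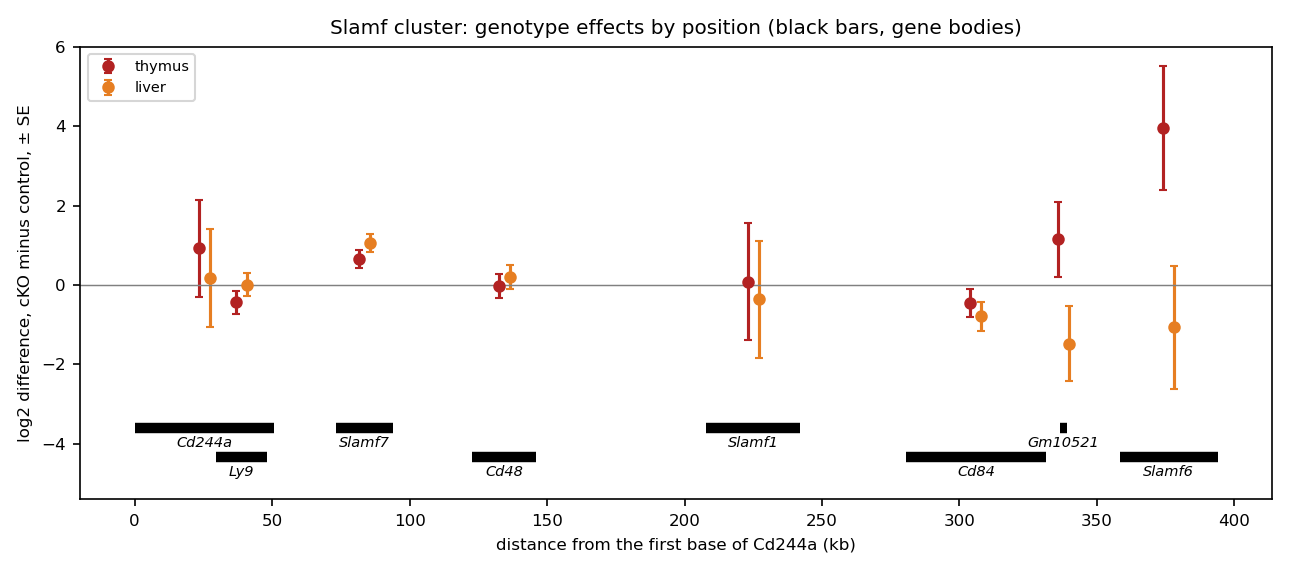
Genotype effects along the Slamf cluster, as limma log2 differences ± SE, cKO minus control (vertical axis), against the distance of each gene's midpoint from the first base of Cd244a in kb (horizontal axis, tissues set slightly apart). Black bars are gene bodies. Slamf7, at 0.65 in thymus and 1.06 in liver, stands between Ly9 and Cd48, whose differences lie between -0.44 and 0.20.

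The wider pathway was described with a list of 37 further genes of SLAM, SAP and T cell receptor signalling, of which 32 were in the table and tested and 5 were not analysed here (Slamf8, Slamf9, Sh2d1b1, Sh2d1b2 and Cd58). Those 5 include both genes of EAT-2. Between the genotypes, limma and edgeR called 0 of the 32 in either tissue or over both. Of all tested genes, limma called 0.636% in thymus, 0.505% in liver and 2.27% over both. Unadjusted p-values below 0.05 were found for 2 higher and 3 lower in thymus, for 1 higher and 1 lower in liver, and for 2 higher and 4 lower over both tissues. Of all tested genes 8.13% were higher and 5.10% lower in thymus at that threshold, 3.43% and 3.49% in liver, and 8.02% and 5.67% over both. The medians of the 32 were 0.08, -0.04 and -0.00 beside 0.24, 0.02 and 0.14 for all tested genes.

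The genes of that list with the highest mean over the 12 libraries were Ptprc (57588), Lcp2 (14621), Fyb (12099) and Ptpn22 (11719.9). Ptprc encodes CD45, the phosphatase that activates Src-family kinases, and averaged 65147 ± 3233 in cKO liver and 45625 ± 3413 in control liver (0.52 ± 0.18, limma adjusted p = 0.33). Lcp2 and Fyb encode the adaptors SLP-76 and ADAP, and Ptpn22 a phosphatase that restrains Lck and Fyn. Their liver differences were -0.11 for Lcp2, -0.36 for Fyb and 0.01 for Ptpn22, none called.

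Between liver and thymus, limma called 2 of the 32 genes, both lower in liver of control mice, where 0.605% of all tested genes were called. In edgeR 1 of them, Ptpn6, was called and Pag1 was not. Ptpn6 encodes SHP-1, a phosphatase that SLAM receptors can recruit in place of SAP, and it averaged 3834 ± 392 in control liver and 12915 ± 3012 in control thymus (n = 3 each). It fell by 1.73 ± 0.33 on the log2 scale (limma adjusted p = 0.015). Pag1 encodes a membrane adaptor that holds Csk, the kinase that switches Src-family kinases off, and averaged 3107 ± 1220.0 in control liver and 11219 ± 6037 in control thymus. It fell by 1.79 ± 0.40 (limma adjusted p = 0.046). In cKO cells the tissue differences were -0.84 ± 0.33 for Ptpn6 (limma adjusted p = 0.48) and -0.34 ± 0.40 for Pag1 (limma adjusted p = 0.94), and whether the genotypes differ in them was not shown, with adjusted p of 0.93 and 0.91 for the difference of effects.

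A list of 10 transcription regulators that act with the pathway in iNKT cells was read in the same way, and only Ets1 was called between the genotypes. Myb, which holds open the time window for iNKT selection and is needed for SLAM receptor and SAP expression in mouse thymocytes, averaged 921 ± 459 in cKO thymus and 77 ± 26.1 in control thymus (n = 3 each), and the groups did not overlap. Its limma difference of 3.51 ± 1.0 was not called (adjusted p = 0.12). Egr1, an early gene of receptor signalling, averaged 5462 ± 1591 in cKO thymus and 1859 ± 742 in control thymus, again without overlap (1.58 ± 0.42, limma adjusted p = 0.1). Thymus groups did not overlap for 14.5% of all tested genes. In liver the groups overlapped for both Myb and Egr1. Myb averaged 383 ± 227 in cKO liver and 139 ± 111 in control liver (1.56, limma adjusted p = 0.91). Egr1 averaged 2873 ± 1193 and 2619.7 ± 735, in the same order (0.07 ± 0.42), and was not called. Tbx21 had 4285, 3673 and 6832 in cKO thymus libraries, against 1386, 5762 and 1868 in control thymus libraries, and 6321, 4831 and 4267 in cKO liver libraries, against 2353, 3513 and 2321 in control liver libraries. Its difference over both tissues was 0.94 ± 0.31 (limma adjusted p = 0.15). Zbtb16, Egr2, Tcf12, Runx1, Gata3 and Nfkbiz had no adjusted p below 0.05 in any genotype comparison.

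Across the 12 libraries, which differ in depth and fall into 4 groups, the patterns of the members were set beside those of all tested genes by Pearson's r of log2(value + 1), as a description. The 3 members that varied most between groups were Slamf7 (moderated F 10.6), Slamf6 (4.2) and Sh2d1a (4.05). Most like Slamf7 were Golim4 (r = 0.935), Myo5a (0.91) and Sp4 (0.908). For Slamf6 they were Tufm (0.97), Slain1 (0.967) and Emc2 (0.962). For Sh2d1a they were Gfod1 (0.93), N4bp1 (0.92) and Tbx21 (0.908). Among the 9 genes themselves, Cd84 and Fyn varied together (r = 0.73) and both ran opposite to Slamf7 (r = -0.73 for Cd84 and -0.72 for Fyn), while Slamf6 ran opposite to Ly9 (r = -0.73). The lowest Slamf6 values, 0.0213 and 64.8, were those of control thymus libraries 1 and 2, which had the most genes without a read. The weight of these libraries in the F and r values of Slamf6 was not tested.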

How the data were processed

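RNA-seq libraries were made from sorted CD1d-tetramer+ YFP+ iNKT1 cells, with RNeasy kits for RNA and the Nugen Ovation Ultralow system, per the labels' protocols. Tools listed in the submitters' processing notes are HTSeq 0.6.1, STAR, TopHat2 2.1.0, Trimmomatic 0.33 and DESeq2, with build mm10, and neither their roles nor the strand setting of the counting is stated. The authors deposited 1 table of 14004 genes by 12 libraries, treated as a signal that is never negative, scaled to a common library size by the authors.

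Whole reads were recovered by inverting a negative binomial quantile adjustment (fitted dispersion 1.42), an inference from the values that no source states. Of all values, 95.8% came within 0.1 of a whole read, between 80.7% in cKO liver library 1 and 100% in cKO thymus library 1. Recovered reads gave depths and the counts for edgeR; depth limits the precision of genes with few reads, above all in the 2 shallow liver libraries, in which 1 read was worth 6.663 and 6.056 value units.

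Gene symbols, positions and exon lengths came from GENCODE M21 on GRCm38, the assembly behind mm10 (13363 identifiers, 95.4%, matched), and promoters from RefSeq. The 13058 genes with values of 10 or more in 3 or more libraries were tested (946 were left out). Limma 3.58.1 (R 4.3.3) fitted log2(value + 1) with 4 group means and a variance trend (8 residual and 10.7 prior degrees of freedom), two-sided, with Benjamini-Hochberg adjustment at 0.05. The plan set limma for normalized values. It was chosen over edgeR's quasi-likelihood test, which edgeR 4.0.16 ran on the recovered reads as an alternative and which called 51 genes in thymus and 39 in liver. Other alternatives were TMM and median-of-ratios rescaling, a pseudocount of 10, no filter, replicate blocks, and leaving out libraries. The methods were also run on simulated data with known changes. In those data the spread of a gene followed from its mean level alone, and libraries were scaled by a plain factor. They therefore cannot show how the methods perform for genes as uneven as Slamf1 and Slamf6.

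The 9 genes and all other lists were chosen with earlier results of these data known. All 9 are described. Of the 37 other pathway genes, those called in any comparison and the 4 others of highest mean are named, of the regulators those called or, after their values were seen, Myb, Egr1 and Tbx21, and for the 3 members with the largest moderated F the 3 most correlated genes. Outside that rule, Mmp9 is named for its correlation with Fyn. Lists of markers covered iNKT and type 1 cells, immature thymocytes, B cells, NK cells, macrophages, dendritic cells, neutrophils, hepatocytes and endothelium. The level of 1 marker gene is not reported here.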

Additional observations from a re-analysis of the deposited data

How the results depend on the processing

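Of 1107 values of the 9 genes under alternatives (54 values, 20 or 21 settings each), 1037 kept their direction and their side of the threshold, 54 changed sign, 11 lost a call and 5 gained one. None of the values that changed sign was a call.

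The call of Slamf7 over both tissues held in all 20 settings, at 0.7 to 0.97. The labels give no pairing, and no same-numbered pair deviated together by more than 0.1: correlations of deviations were 0.04, -0.1 and -0.08 between cKO and control in thymus, 0.08, 0.08 and 0.07 in liver, and, between liver and thymus, 0, 0.05 and 0.06 in cKO and 0.07, 0.01 and 0.05 in control. Same-numbered libraries of the 2 tissues may still come from 1 mouse, which the sources used here do not say. With the replicate block within tissue, 36 genes were called in thymus, 42 in liver and 12 between the tissues of cKO cells, and of the 9 genes 0 was called in liver (Slamf7 at 1.06, limma adjusted p = 0.064). A replicate block within genotype, chosen after seeing the data, gave 26 called genes between the tissues of cKO cells, 55 in control cells and 1 for the difference of effects, with 0 of the 9 genes.

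Genes called in thymus (83) numbered 129 with a pseudocount of 10, 51 in edgeR, 25 without both shallow liver libraries and 4 without control thymus libraries 1 and 2. In liver (66) these settings gave 104, 39, 9 and 216, and in cKO cells between tissues (29) they gave 54, 18, 8 and 73. Over both tissues (297) 93 were called without the shallow libraries and 184 without the control thymus pair, and in control cells between tissues (79) 49 in edgeR, 20 and 29. For the difference of effects (1) there were 2 after TMM, 3 with a pseudocount of 10 and 3 in edgeR. Of the 9 genes, the 1 called in liver became 0 after TMM or median-of-ratios rescaling, in edgeR and without the shallow libraries, and the 1 over both tissues became 2 without the control thymus pair. Leaving out 1 library at a time gave 21 to 542 called genes in thymus, 19 to 126 in liver, 168 to 547 over both tissues, 1 to 9 for the difference, 3 to 43 between tissues of cKO cells and 26 to 395 in control cells, and of the 9 genes 0 to 1 in thymus, 0 to 1 in liver, 1 to 2 over both tissues, 0 to 0 for the difference and in cKO cells, and 0 to 1 in control cells. The highest thymus count came without control thymus library 3. Fewer libraries leave fewer degrees of freedom, and the causes of the other shifts were not tested.

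Signs changed for small or noisy values. For Slamf1 in thymus they turned to -0.21 (TMM), -0.07 (median of ratios), -0.08 (pseudocount of 10) and -1.82 (edgeR), over both tissues to 0.02 without the shallow libraries and 0.23 without the control thymus pair, and for the difference to 1.34 in edgeR. Without that pair Slamf6 turned to -0.87 in thymus and -0.97 over both tissues, where edgeR gave -0.13. Ly9 in liver gave -0.01 (TMM and median of ratios), -0.0018 (edgeR) and -0.14 without the shallow libraries. Cd48 over both tissues gave -0.07 (TMM), -0.0009 (median of ratios) and -0.01 without the pair. Cd84 gave 0.48 for the difference and -0.30 between tissues of control cells without the pair. For the difference, Sh2d1a gave 0.25 (TMM), 0.10 (median of ratios) and 0.17 (edgeR), and Sh2d2a 0.17 (TMM), 0.03 (median of ratios) and 0.10 without the pair.

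Leaving out 1 library at a time changed the sign of Slamf1 in thymus (-1.76 to 2.29), over both tissues (-1.06 to 0.97) and for the difference (-2.64 to 1.4), of Cd48 in thymus (-0.27 to 0.18) and over both (-0.03 to 0.19), of Fyn in thymus (-0.34 to 0.06), of Ly9 in liver (-0.15 to 0.18), of Sh2d1a (-0.68 to 0.58) and Sh2d2a (-0.32 to 0.09) for the difference, of Slamf6 (-0.29 to 0.49) and Sh2d1a (-0.06 to 0.68) between tissues of cKO cells, and of Sh2d1a (-0.27 to 0.98) in control cells. Genes with few reads in a library, Slamf1 and Slamf6 above all, are limited by depth and by the spread of the thymus libraries.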
